A study of Mus musculus with 8 samples.

Results

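The 10 genes described here encode the light chains of skeletal muscle myosin, the kinase that acts on them, the striated muscle actins and the myosin binding proteins: Mylpf, Myl1, Myl2, Myl3, Myl4, Mylk2, Acta1, Actc1, Mybpc1 and Mybpc2. They were chosen by name, and all 10 of 10 were found among the 14012 genes of the deposited count table. The study asked how skeletal muscle responds when GRPEL1, a co-chaperone of mitochondrial protein import, is lost, and RNA was sequenced from the quadriceps femoris (QF), a large thigh muscle. The 4 knockout libraries came from mice labelled Grpel1 smk -/- (Grpel1 skm-/- in the study), in which both copies of Grpel1 are floxed and a tamoxifen-inducible Cre-ERT2 recombinase is made under the human skeletal muscle α-actin promoter (HSA). The mice were 5 weeks old at the first tamoxifen injection, were injected for 5 days and reached the end point within 5 weeks of induction. The 4 control libraries came from Grpel1 flox/flox mice, which share the floxed alleles. Where it describes body weight, the study calls the floxed littermates untreated, and it also kept floxed mice with Cre but no tamoxifen and floxed mice with tamoxifen but no Cre. A further group was wild-type mice with Cre and tamoxifen, and the study reports that tamoxifen-treated wild-type mice did not lose weight as the knockouts did. No library is labelled as theirs. Which of the floxed mice gave the control libraries is not stated. In these libraries, effects of the drug, of the Cre recombinase and of the deletion therefore cannot be told apart. The Cre driver is the promoter of the human counterpart of Acta1, so that deletion is limited to cells that use this promoter, mainly muscle fibres.

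Muscle myosin is built of a pair of heavy chains, each carrying an essential and a regulatory light chain at its neck. Fast, slow and embryonic fibres use different genes for the same position, and the light chains, actins and binding proteins are exchanged when a fibre matures or changes its type. In the quadriceps of the mouse most fibres are fast. Mylpf encodes the fast regulatory light chain and Myl1 the fast essential light chain, Myl2 and Myl3 encode the regulatory and essential chains of slow fibres and the heart ventricle, and Myl4 encodes the essential chain of embryonic muscle and the atrium. Mylk2, the skeletal muscle light chain kinase, is switched on by calcium and calmodulin and phosphorylates the regulatory light chain. Acta1 is the actin of adult skeletal muscle and Actc1 that of the heart and of developing skeletal muscle. Mybpc1 and Mybpc2 are the slow-type and fast-type myosin binding proteins C, which lie along the thick filament.

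The stretch just before the start of each gene is shown first for the 3 members with a CArG box, the site bound by serum response factor (SRF), and for the fast light chain genes. RefSeq windows of GRCm38.p6 lay at the deposited start, within 10 bases, for 8 of the 10 members, and Myl2 and Mylk2 had none there. The 200 bases before the start, read 5′ to 3′ on the strand of the gene, are chr8:123894776-123894975 (minus strand) for Acta1, chr2:114052876-114053075 (minus) for Actc1, chr9:110763478-110763677 (plus) for Myl3, chr7:127211408-127211607 (plus) for Mylpf and chr1:66945057-66945256 (minus) for Myl1. Capitals mark matches to the CArG box, the MEF2 site, the E-box CANNTG or the MCAT element CATTCC on either strand.
Acta1: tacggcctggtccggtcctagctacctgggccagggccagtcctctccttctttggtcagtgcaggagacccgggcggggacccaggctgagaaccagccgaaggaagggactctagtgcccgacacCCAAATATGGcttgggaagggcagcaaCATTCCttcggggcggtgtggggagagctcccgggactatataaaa
Actc1: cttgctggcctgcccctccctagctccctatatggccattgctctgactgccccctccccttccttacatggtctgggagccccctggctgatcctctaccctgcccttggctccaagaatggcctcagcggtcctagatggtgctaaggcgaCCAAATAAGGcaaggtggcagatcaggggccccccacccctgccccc
Myl3: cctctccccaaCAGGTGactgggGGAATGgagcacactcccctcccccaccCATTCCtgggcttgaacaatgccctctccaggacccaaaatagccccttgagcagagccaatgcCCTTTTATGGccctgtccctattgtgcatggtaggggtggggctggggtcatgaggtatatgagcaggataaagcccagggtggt
Mylpf: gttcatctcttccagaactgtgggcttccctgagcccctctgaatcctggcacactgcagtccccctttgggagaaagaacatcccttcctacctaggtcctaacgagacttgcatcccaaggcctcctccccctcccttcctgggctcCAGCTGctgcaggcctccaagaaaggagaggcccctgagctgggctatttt
Myl1: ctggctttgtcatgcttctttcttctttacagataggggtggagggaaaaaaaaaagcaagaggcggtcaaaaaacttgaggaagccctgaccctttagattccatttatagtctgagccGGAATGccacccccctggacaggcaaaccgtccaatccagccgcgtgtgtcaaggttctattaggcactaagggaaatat

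Over the 250 bases before the start, a CArG box was found in 3 of the 8 member windows and in 1.47% of all 32851 windows searched. It read CCAAATATGG in Acta1, 73 to 64 bases before the start, CCAAATAAGG in Actc1, 47 to 38 bases before it, and CCTTTTATGG in Myl3, 85 to 76 bases before it. The MCAT element CATTCC, bound by TEAD factors, was found in 4 of the 8 (Myl1, Myl3, Acta1 and Mybpc2) and in 12.6% of all windows. An E-box CANNTG, the short site of the MyoD family, was found in 6 of 8 and in 66.2% of all windows. The MEF2 site was found in 0 of 8 and in 2.92% of all windows. The letters TATAAA of the TATA box, sought on either strand, were found in 2 of 8 and in 12.4%. In Acta1 they lay on the strand of the gene, 7 to 2 bases before the start. In Myl1 they lay on the other strand, 95 to 90 bases before it. These are matches of letters, and binding was not measured.

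Acta1 and Actc1 are near copies of each other, and the authors dropped read pairs that mapped to more than 1 place. In the GENCODE M21 annotation their coding sequences, of 1134 bases each, were identical at 977 bases (86.2%). The longest identical run was 29 bases, from position 964 to 992 of the coding sequence. It is shown in capitals with the 20 bases on each side, since it is the stretch where the genes are hardest to tell apart.
Acta1: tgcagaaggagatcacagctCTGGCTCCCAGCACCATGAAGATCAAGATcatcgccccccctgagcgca
Actc1: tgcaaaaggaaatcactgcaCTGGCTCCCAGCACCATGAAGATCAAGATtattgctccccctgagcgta

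The reads were 75 bases long, and the longest protein-coding transcript of each member was searched in stretches of that length. For Actc1, 0 of 1399 stretches occurred in another gene, and for Acta1 6 of 1372 did (Actb and Gm47692). For Myl1 the share was larger, 167 of 1008 stretches (16.6%), all found in the pseudogene Mylf-ps. It was 4.63% for Mybpc1 (Gm48752), 1.39% for Mybpc2 (Gm44646) and 0 for the remaining 5 members. Myl1 yields a long and a short essential light chain from alternative starts, and the counts per gene do not separate them. Of the members, Myl4 was listed at a position that overlaps a gene of the table on the other strand, Gm11665, and whether strand was used when counting is not stated.

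The libraries held 16017565 to 18813042 counts in control and 16424608 to 20361144 in knockout libraries, each from a mouse of its own. Levels are given as CPM, read pairs scaled to a common library total, here after TMM scaling, which multiplies each library size by a composition factor that was 0.747 to 0.844 among controls and 1.19 to 1.33 among knockouts. Grpel1 itself did not pass the test in the libraries labelled knockout (68.4 ± 3.04 CPM in controls and 65.3 ± 6.11 in knockouts, SD, n = 4 each, log2 fold change -0.07, adjusted p = 0.49, quasi-likelihood test of edgeR), so its RNA does not check the labels. At the protein level, the study reports less GRPEL1 in knockout QF by immunoblot and immunostaining. Over all genes the test called 3303 higher and 2962 lower at an adjusted p under 0.01, and the median log2 fold change was 0.07. With library totals alone in place of TMM these were 8498 higher and 873 lower and the median was 0.73, so that every change below is relative to the scaling. In bulk tissue, fewer fibres and less RNA per fibre cannot be told apart.

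Of the 10 members, 6 were downregulated (Mylpf, Myl1, Mylk2, Acta1, Actc1 and Mybpc2), 2 were upregulated (Myl2 and Myl4) and 2 did not pass the test (Myl3 and Mybpc1). In edgeR's quasi-likelihood test 21.1% of all genes were called lower, 23.6% higher and 44.7% in either direction. The groups did not overlap in CPM for 7 members, 6 lower and 1 higher, beside 24.4% of all genes not overlapping and lower and 53.4% not overlapping either way. The median log2 fold change of the members was -1.23, from -2.52 for Mylk2 to 5.73 for Myl4. Under library totals alone the counts were 5 lower and 3 higher, and all members' log2 fold changes were larger by about the shift of the median, for example -0.99 for Myl1, -1.87 for Mylk2, -1.67 for Mybpc2, 3.48 for Myl2 and 6.39 for Myl4. Together the members took 6.80%, 6.68%, 7.13% and 6.47% of the sequenced counts for control replicates 1 to 4 and 3.81%, 3.86%, 4.14% and 3.66% for knockout replicates 1 to 4. This share, which uses no scaling factor, fell by 2.90 percentage points and did not overlap between the groups (p = 0.0286 in a two-sided exact permutation test, which 4 against 4 libraries cannot go below).

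**Figure D1:**
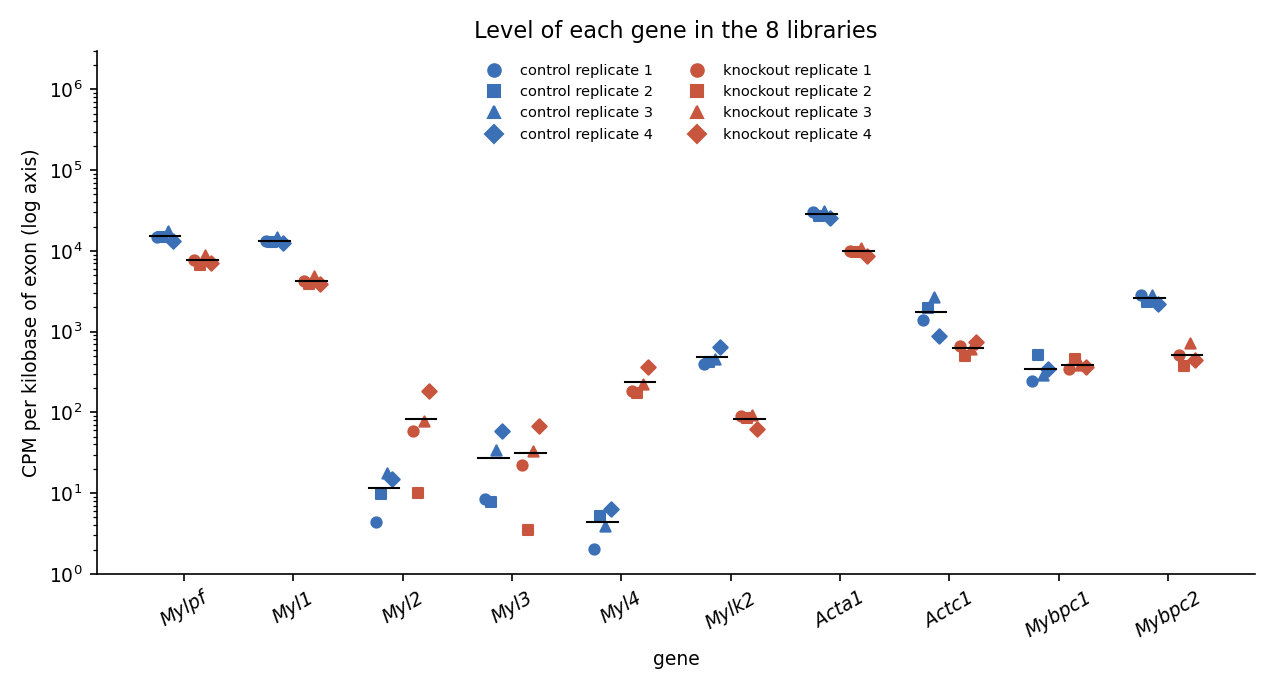
Level of each of the 10 genes in each library, in CPM per kilobase of exon on a log axis, with controls in blue, knockouts in red, a marker shape per replicate number and a black line at each group mean. The knockout points lie below the control points for Mylpf, Myl1, Mylk2, Acta1, Actc1 and Mybpc2, above them for Myl4, while the groups overlap for Myl2, Myl3 and Mybpc1.

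Divided by exon length, which allows levels of different genes to be set side by side, Acta1 was highest in the controls with 28435 ± 2554 CPM per kilobase (SD, n = 4). Mylpf followed with 15070 ± 1779 and Myl1 with 13332 ± 1153, and the ranges of these fast light chains overlapped. Mybpc2 (2572 ± 342) and Actc1 (1744 ± 786) overlapped next, and then Mylk2 (478 ± 111) and Mybpc1 (349 ± 116). The slow and embryonic light chains lay lowest, Myl3 at 27.3 ± 24.6, Myl2 at 11.6 ± 5.86 and Myl4 at 4.36 ± 1.83, each overlapping its neighbour. In the knockouts Acta1 (9843 ± 923), Mylpf (7601 ± 972) and Myl1 (4219 ± 489) kept the first 3 places, with overlap between Acta1 and Mylpf. Myl4 moved from place 10 to place 7, at 236 ± 86.3 CPM per kilobase, overlapping Mybpc1 above it and clear of Mylk2 below it (83.1 ± 13.6). Myl2 reached 82.1 ± 72.4 and overlapped Mylk2 above it and Myl3 (31.8 ± 27) below it.

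The fast light chains were downregulated. Mylpf (Entrez Gene 17907, chromosome 7, 127211608 to 127214287 of GRCm38) had 11252, 11252, 13140 and 9869 CPM in control replicates 1 to 4 and 5886, 4987, 6692 and 5392 CPM in knockout replicates 1 to 4. All knockouts lay below all controls, and replicate 3 was the highest of each group. The log2 fold change was -0.99 (SE 0.14, adjusted p = 1.7e-04 by the quasi-likelihood test of edgeR, Benjamini-Hochberg), or 1.98-fold lower. Under library totals alone it was -0.32, still called (adjusted p = 0.0086). Myl1 (17901, chromosome 1, 66924295 to 66945056) had 14766, 14132, 16623 and 13725 CPM among controls and 4666, 4297, 5463 and 4324 CPM among knockouts. It fell by 1.66 on the log2 scale (SE 0.13, adjusted p = 3.8e-06, edgeR), or 3.16-fold lower, again without overlap, and whether it fell further than Mylpf was not tested. Within the groups Mylpf and Myl1 varied together, with a Pearson r of 0.95 between their deviations from the group means over the 8 libraries, which share depth and scaling.

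The slow light chains gave a less even picture. Myl2 (17906, chromosome 5, 122100980 to 122106854) had 2.75, 6.09, 11.1 and 9.45 CPM among controls and 37.1, 6.37, 49.4 and 115 CPM among knockouts. Knockout replicates 1, 3 and 4 lay above all controls, while knockout replicate 2 lay inside the control range. The log2 fold change of 2.81 passed the test (SE 0.73, adjusted p = 0.0074, edgeR). It no longer passed with a robust dispersion (adjusted p = 0.032) or without any single library other than knockout replicate 2. Without a control replicate it was 2.55 to 3.07, and without knockout replicates 1, 3 or 4 it was 2.94, 2.81 and 2.06, with adjusted p of up to 0.024. It passed with DESeq2 (adjusted p = 0.0017) and with library totals alone (adjusted p = 0.0019). The rise of Myl2 therefore rests on few libraries, and the exact permutation test on its CPM gave p = 0.0857 (two-sided). Its share of all counts narrowly did not overlap, at most 0.000829% among controls and at least 0.000846% among knockouts (p = 0.0286, exact permutation test).

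Myl3 (17897, chromosome 9, 110763681 to 110769794) had 7.51, 6.94, 30.3 and 53.4 CPM among controls and 20.01, 3.16, 30.2 and 60.9 CPM among knockouts. The groups spanned nearly the same range, and replicate 4 was the highest of each. It had a log2 fold change of 0.21 with a standard error of 0.79 (adjusted p = 0.83, edgeR), and it ran from -0.48 to 0.94 when single libraries were left out. Spread within a group was far larger for the slow light chains than for the fast ones. The highest knockout was 18.1 times the lowest for Myl2 and 19.3 times for Myl3, against 1.34 times for Mylpf and 1.27 times for Myl1. Myl2 and Myl3 moved together within the groups (r = 0.92 over the 8 libraries), and each also moved with Myh7, the slow heavy chain (r = 0.78 for Myl2 and 0.73 for Myl3). With the embryonic Myl4, r was little lower, 0.71 for Myl2 and 0.64 for Myl3.

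Myh7 had 16.7, 3.27, 39.9 and 5.42 CPM among controls and 173, 6.18, 280.0 and 528 CPM among knockouts. Knockout replicate 2 was thus the lowest knockout library for all 3 slow genes. Myh7 did not pass the test (log2 fold change 3.93, SE 1.11, adjusted p = 0.012, edgeR), but passed without knockout replicate 2 (4.33, adjusted p = 0.0013), with DESeq2 (adjusted p = 0.0022), with library totals alone (4.63, adjusted p = 0.0043) and without control replicate 3 (4.90, adjusted p = 0.0092). What set knockout replicate 2 apart was not tested.

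**Figure D2:**
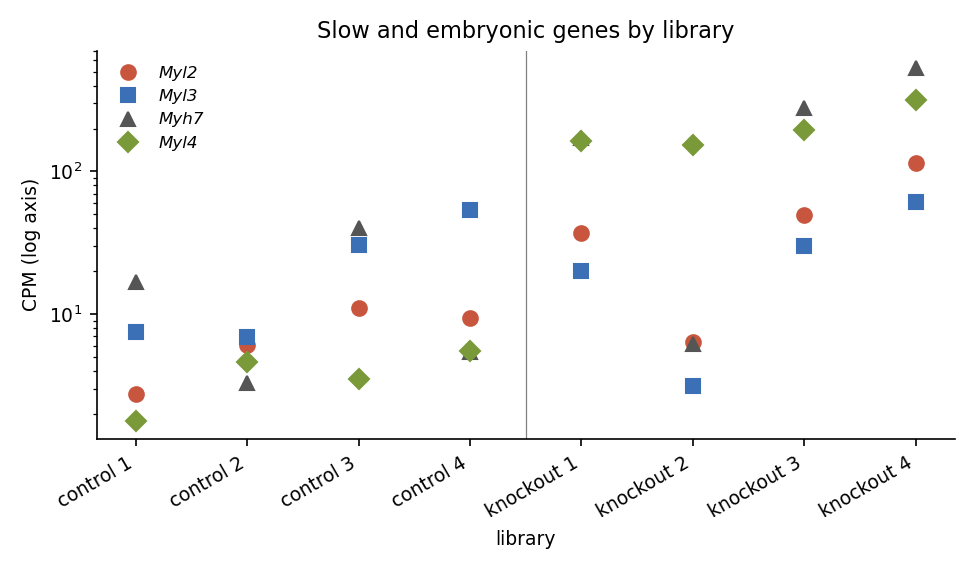
CPM on a log axis of Myl2 (circles), Myl3 (squares), Myh7 (triangles) and Myl4 (diamonds) in each of the 8 libraries, controls to the left of the grey line and knockouts to the right. In knockout replicate 2 the slow genes Myl2, Myl3 and Myh7 lie between 3.16 and 6.37 CPM, while Myl4 is at 153 CPM, in reach of the other knockouts.

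Myl4, the embryonic essential light chain, rose most among the members. The gene (17896, chromosome 11, 104550663 to 104587219) was hit by 22, 70, 49 and 88 read pairs among controls and by 3917, 3349, 4759 and 8024 among knockouts, in replicate order. In CPM these were 1.78, 4.58, 3.51 and 5.55 against 163, 153, 196 and 319. All 4 knockouts, replicate 2 included, lay far above the controls, and knockout replicate 4 was the highest. It had a log2 fold change of 5.73 (SE 0.35, adjusted p = 8.6e-07, edgeR), or 53.0-fold, and it ranked 49 from the top of the 14012 genes.

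The heavy chains of developing muscle rose beside it. Myh3, the embryonic heavy chain, went from 2.55 ± 0.310 to 312 ± 149 CPM and Myh8, the perinatal heavy chain, from 6.41 ± 1.01 to 673 ± 271 CPM (SD, n = 4 each). Their log2 fold changes were 6.92 and 6.72 (adjusted p = 6.5e-07 and 2.2e-07, edgeR). The 6 heavy chains counted here as partners of the light chains gave 3 higher, 1 lower and 2 not called. Of all genes, 44.7% were called in either direction. Myh1, the fast 2X chain, rose by 1.15 on the log2 scale (7246 ± 2162 to 16074 ± 3194 CPM, adjusted p = 0.0017, edgeR). Myh4, the fast 2B chain and the most abundant of the 6 in the controls, fell by 2.34 (103899 ± 16665 to 20582 ± 4678 CPM, adjusted p = 1.2e-05, edgeR). On the log2 scale the falls of Mylpf and Myl1 were smaller, a difference that was not tested. Myh2, the fast 2A chain, had 959 ± 602 and 1108 ± 161 CPM and did not pass (adjusted p = 0.70).

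Per length, the essential light chain genes Myl1, Myl3 and Myl4 were also set against each other within each library. Myl1 made up 99.8% ± 0.207 of their sum among controls and 94.0% ± 2.64 among knockouts (SD, n = 4). The share of Myl4 was 0.0332% ± 0.0156 among controls and 5.29% ± 2.05 among knockouts, where it was 4.20%, 4.29%, 4.30% and 8.36% in replicates 1 to 4. Myl3 made up 0.207% ± 0.197 and 0.703% ± 0.625. The embryonic gene thus passed the slow gene in every knockout library, and the fast gene remained by far the most abundant.

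Mylk2, the kinase of the regulatory light chain, fell most among the members. The gene (228785, chromosome 2, 152911352 to 152923065) had 1176, 1232, 1341 and 1886 CPM among controls and 268, 254, 272 and 186 CPM among knockouts. The groups lay well apart, and replicate 4 was the highest control and the lowest knockout. Its log2 fold change was -2.52 (SE 0.18, adjusted p = 2.1e-06, edgeR), or 5.75-fold lower, and 1.03% of all genes had a lower one.

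Among other genes that act on light chain phosphorylation, namely other kinases, subunits of the myosin phosphatase and calmodulin, 7 of 9 were lower and 1 was higher. Of all genes, 21.1% were lower and 23.6% higher. Mylk4, a further light chain kinase of striated muscle, fell by 4.57 on the log2 scale (1877 ± 653 to 79.2 ± 32.5 CPM, adjusted p = 4.0e-06, edgeR). Calm3, a calmodulin gene, fell by 1.93, and Ppp1r12b, a targeting subunit of the phosphatase in striated muscle, fell by 1.02. Ppp1r12b was not called with library totals alone (-0.35, adjusted p = 0.042). Ppp1r12a, a related and more widely expressed subunit, was the gene that rose (22.6 ± 3.47 to 40.8 ± 3.30 CPM, adjusted p = 1.2e-04, edgeR) and was named after its value was seen.

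Both actins were downregulated. Acta1 (11459, chromosome 8, 123891758 to 123894775) had 47346, 42213, 48752 and 40374 CPM among controls and 15805, 15375, 17089 and 13582 CPM among knockouts. Libraries of a group differed little, by at most 1.26 times, and the groups did not overlap. The log2 fold change was -1.53 (SE 0.15, adjusted p = 1.3e-05, edgeR), or 2.89-fold lower, and -0.86 with library totals alone, still called. Acta1 alone held 3.53% ± 0.136 of all counts among controls and 1.95% ± 0.128 among knockouts. The authors removed duplicate read pairs, which limits how many distinct pairs a short, abundant transcript can give, and whether this narrows the fold of Acta1 and the fast light chains was not tested.

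Actc1 (11464, chromosome 2, 114047282 to 114052875) had 2047, 2898, 3960 and 1288 CPM among controls and 973, 731, 886 and 1096 CPM among knockouts. The groups did not overlap, but the highest control was 3.08 times the lowest, and control replicate 4 lay just above the highest knockout. Its log2 fold change was -1.47 (SE 0.30, adjusted p = 0.0018, edgeR), or 2.76-fold lower. It was -0.78 with library totals alone and did not pass (adjusted p = 0.024), and its share of all counts overlapped between the groups. Actc1 therefore fell relative to most genes, while its fall in raw share was within the spread (0.200% ± 0.0828 against 0.116% ± 0.0199, exact permutation test, p = 0.0857).

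The 4 other actins, cytoplasmic Actb and Actg1 and smooth muscle Acta2 and Actg2, gave 0 calls in either direction in edgeR's test, 0 at an unadjusted p under 0.05 and 0 with DESeq2. Their log2 fold changes ran from -1.06 for Actg2, which had at most 1.11 CPM in every library, to 0.50 for Acta2. Of 13 genes that fold, cap or assemble the filaments, 4 were lower and 2 higher, beside 21.1% and 23.6% of all genes. Tmod1 and Tmod4, which cap the pointed ends of thin filaments, fell by 1.63 and 1.11 on the log2 scale (adjusted p = 9.1e-07 and 6.1e-05, edgeR), and Unc45b, a chaperone of myosin, by 1.14. Lmod2, a leiomodin that lengthens thin filaments, rose from 99.3 ± 54.7 to 428 ± 94.9 CPM (log2 fold change 2.11, adjusted p = 8.4e-04, edgeR).

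Of 14 regulators of muscle actin and fibre-type genes, 9 were lower and 2 higher, beside 21.1% and 23.6% of all genes. Srf, the factor of the CArG box shown above, fell by 1.01 on the log2 scale (145 ± 10.5 to 72.3 ± 8.31 CPM, adjusted p = 1.0e-05, edgeR), and its cofactor Mkl1 by 1.16. With library totals alone neither passed (adjusted p = 0.015 for Srf and 0.030 for Mkl1). Eya1, a cofactor that maintains fast fibre genes, fell by 1.19, and Sox6, a repressor of slow fibre genes, by 1.35 (177 ± 10.5 to 69.4 ± 8.28 CPM, adjusted p = 1.9e-06, edgeR). Whether any of these changes bears on the members was not tested.

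The myosin binding proteins C parted. Mybpc2 (233199, chromosome 7, 44501699 to 44524669), the fast type, had 10399, 8465, 10367 and 8047 CPM among controls and 1853, 1350, 2605 and 1600 CPM among knockouts. The lowest control was far above the highest knockout, and the log2 fold change was -2.33 (SE 0.21, adjusted p = 8.5e-06, edgeR), or 5.03-fold lower. Within the groups Mybpc2 moved with Myl1 (r = 0.91) and Mylpf (r = 0.88) over the 8 libraries.

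Mybpc1 (109272, chromosome 10, 88518279 to 88605152), the slow type, had 984, 2037, 1144 and 1387 CPM among controls and 1381, 1846, 1542 and 1460 CPM among knockouts. All 4 knockouts fell inside the control range, and the log2 fold change of 0.17 did not pass (SE 0.21, adjusted p = 0.51, edgeR). Scaled by library totals alone it was 0.83 and passed (adjusted p = 0.0082), and its share of all counts was 0.111% ± 0.0403 among controls and 0.197% ± 0.0333 among knockouts, without overlap. So the level of Mybpc1 relative to Mybpc2 changed under either scaling, but whether Mybpc1 itself rose depends on the scaling. Of the related proteins, Mybphl was higher, at 0 to 0.215 CPM among controls and 0.641 to 2.44 CPM among knockouts, and Mybph, named after its values were seen, was lower with overlapping groups (log2 fold change -1.60, adjusted p = 0.0034, edgeR).

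**Figure D3:**
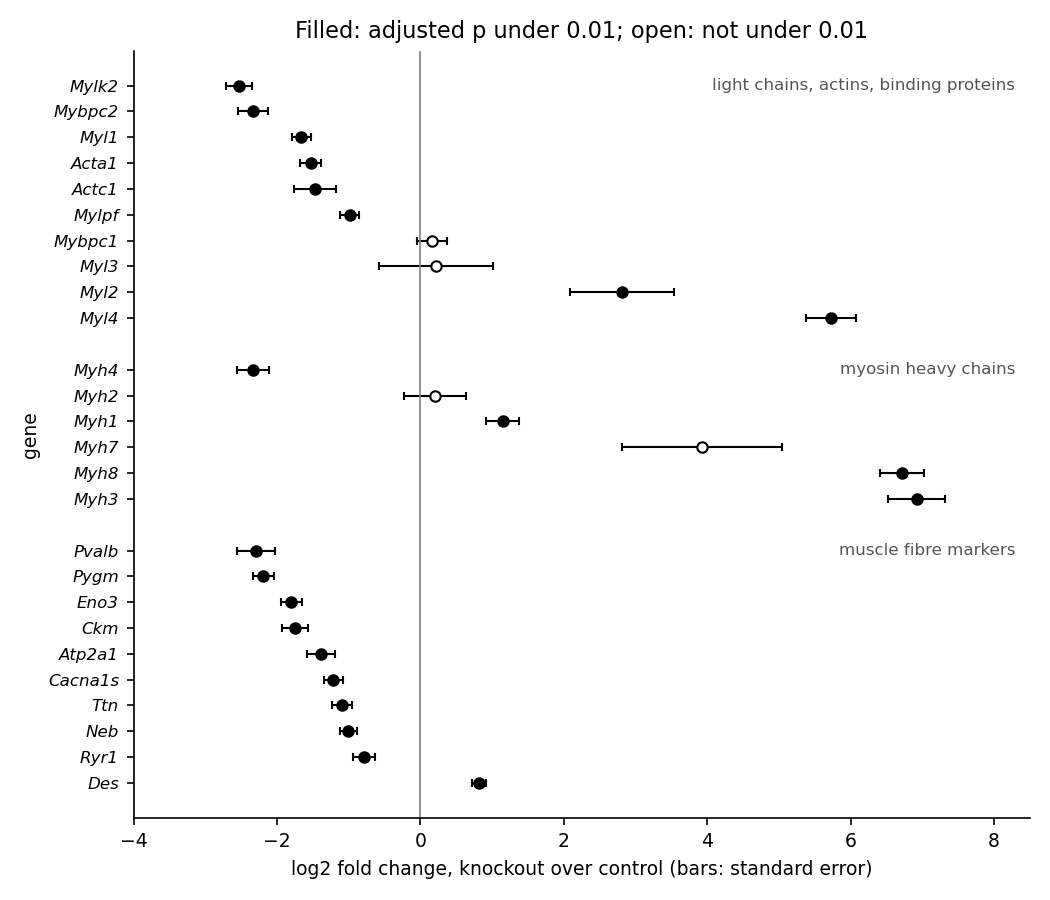
Log2 fold change of knockout over control with its standard error (edgeR, n = 4 each) for the 10 genes, the 6 partner heavy chains and 10 muscle fibre markers, filled where the adjusted p was under 0.01. Among the 10 genes values run from -2.52 for Mylk2 to 5.73 for Myl4, the open points being Mybpc1 and Myl3.

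Ratios of isoforms within a library do not depend on the scaling between libraries. For ratios between members, log2 of the ratio of counts, each with 0.5 added, was compared by an exact permutation test over the 70 assignments of 4 against 4 (two-sided), with adjustment over the 6 ratios tested. For Myl2 over Mylpf, slow to fast regulatory chain, it was -11.98, -10.84, -10.21 and -10.02 among controls and -7.31, -9.61, -7.08 and -5.55 among knockouts. The groups did not overlap although knockout replicate 2 came close to the controls, and the mean difference was 3.38 ± 0.95 (standard error, p = 0.0286, adjusted p = 0.0429, exact permutation test). With any control replicate left out the difference was 2.97 to 3.62 and did not pass (p = 0.0571, exact permutation test). Myl4 over Myl1, embryonic to fast essential chain, was 7.46 ± 0.46 higher in the knockouts (adjusted p = 0.0429, exact permutation test), from -12.99 to -11.27 in controls and from -4.84 to -3.76 in knockouts. Mybpc1 over Mybpc2, the genes named slow-type and fast-type, rose by 2.58 ± 0.40 (adjusted p = 0.0429, exact permutation test). The values went from between -3.40 and -2.05 in controls to between -0.76 and 0.45 in knockouts. In knockout replicate 2 the slow-type gene exceeded the fast-type in counts, although Myl2, Myl3 and Myh7 were lowest there among the knockouts. Within the groups Mybpc1 did not rise and fall with the slow light chains (r = -0.15 with Myl2 and -0.34 with Myl3).

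Other ratios moved down or stayed within the spread. Mylk2 over Mylpf, kinase to its fast substrate, was lower by a mean difference of -1.53 ± 0.25 in the knockouts, without overlap (adjusted p = 0.0429, exact permutation test). Myl3 over Myl1, slow to fast essential chain, was 1.78 ± 1.15 higher on average, with overlapping groups (p = 0.143, adjusted p = 0.171, exact permutation test).

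A further ratio was added after the counts were seen, Myl2 over Myl3, regulatory to essential chain of slow fibres. Its log2 value was -1.44, -0.19, -1.45 and -2.49 among controls and 0.89, 1.01, 0.71 and 0.92 among knockouts. Each control had fewer Myl2 than Myl3 counts and each knockout had more, also knockout replicate 2, where both genes were low. Divided by exon length, Myl2 made up 34.2%, 55.4%, 34.2% and 20.1% of the pair in control replicates 1 to 4. Among knockouts it made up 69.9% to 74.1%. Per length, Myl2 thus already exceeded Myl3 in control replicate 2. The mean difference was 2.27 ± 0.48 (p = 0.0286, exact permutation test, not adjusted, and p = 0.0571 with any knockout replicate left out), and the SD was 0.94 among controls and 0.12 among knockouts.

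**Figure D4:**
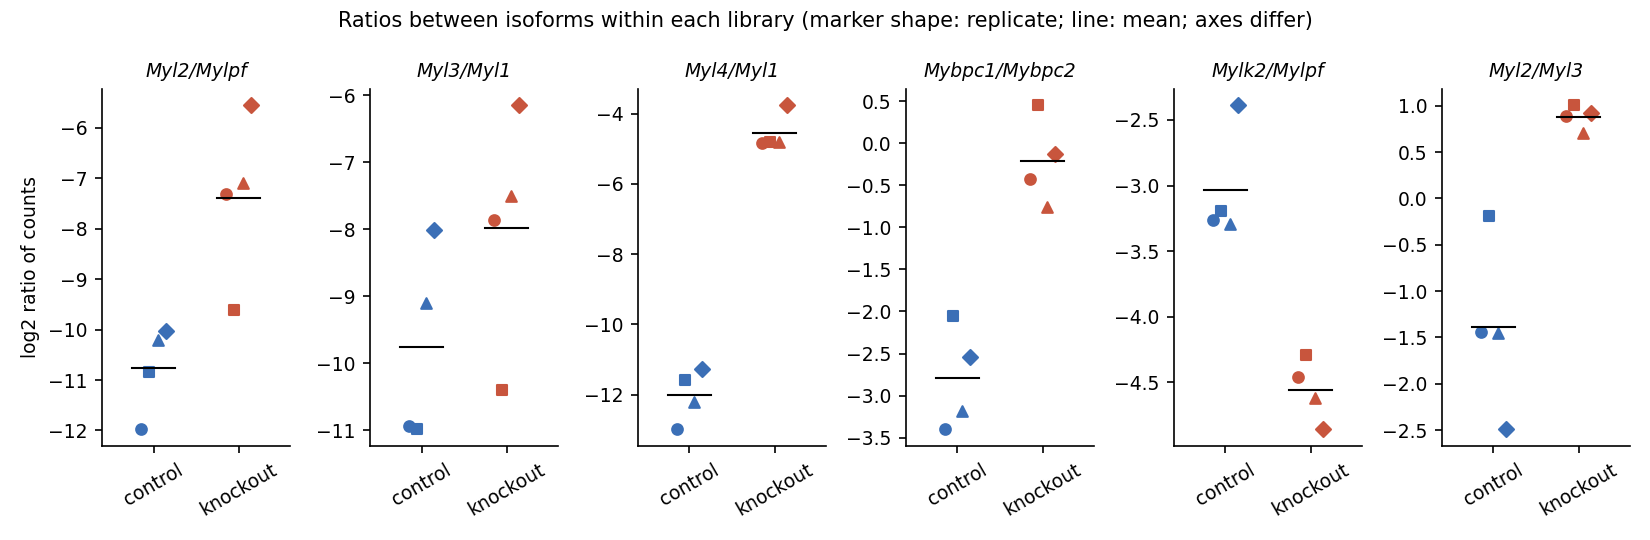
Log2 ratio of counts within each library for 6 pairs of genes, controls in blue and knockouts in red, with a marker shape per replicate number and a black line at each group mean, each panel with its own axis. The groups are separate for Myl2/Mylpf, Myl4/Myl1, Mybpc1/Mybpc2, Mylk2/Mylpf and Myl2/Myl3 and overlap for Myl3/Myl1.

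Of the other light chains, which serve smooth muscle and non-muscle cells or low-abundance forms, 2 of 6 were higher and 0 lower. The shares of all genes were 23.6% higher and 21.1% lower. Myl12a, a regulatory light chain of non-muscle myosin, rose from 158 ± 16.8 to 418 ± 72.2 CPM (log2 fold change 1.40, adjusted p = 1.1e-05, edgeR), and Myl6b, an essential light chain, from 4.58 ± 0.499 to 14.1 ± 5.21 CPM (1.62, adjusted p = 3.4e-04, edgeR). Over all 7 lists of related genes 11 of 54 were higher and 22 lower (median of their log2 fold changes -0.22), and with library totals alone 28 were higher and 11 lower.

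The tissue label was checked against markers. All 10 muscle fibre markers were measured, with a summed level of 114738 to 152391 CPM among controls and 44747 to 64256 CPM among knockouts. Of these 9 were lower, by 0.79 (Ryr1) to 2.30 (Pvalb) on the log2 scale, and Des, the desmin gene, was higher (0.82, adjusted p = 6.7e-05, edgeR).

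Myl2, Myl3, Myl4 and Actc1 are also genes of the heart, and Myl4 and Actc1 of myoblasts. Of 7 cardiac markers 3 were analysed: Myh6 had 1.70 to 5.43 CPM among controls and 1.10 to 2.39 CPM among knockouts, Tnni3 at most 1.03 CPM in any library, and Tnnt2, also a gene of embryonic skeletal muscle, rose from 1.64 ± 0.985 to 73.6 ± 31.2 CPM. Of 6 markers of satellite cells and myoblasts 3 were higher (Myf5, Myog and Cdh15) and 1 lower (Cd34), with a sum of 99.6 to 109 CPM among controls and 162 to 235 CPM among knockouts. Myog rose from 6.59 ± 2.30 to 103 ± 23.2 CPM, while Pax7, the marker of satellite cells, had 2.51 ± 0.614 and 3.06 ± 0.559 CPM. Their part in the rise of Myl4 was not tested.

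Markers of other cells in the muscle were counted in the same way. Of smooth muscle markers 6 of 8 were lower (sum 799 to 918 against 401 to 489 CPM), of fibroblast markers 5 of 7 (1744 to 2611 against 695 to 1066 CPM) and of endothelial markers 5 of 6 (254 to 376 against 182 to 207 CPM), and 0 were higher. The smooth muscle sum was mostly Synpo2, with 549 to 567 CPM among controls and 195 to 269 CPM among knockouts. Acta2 and Actg2 were not called, and the mean of Acta2 was 69.8 CPM among controls and 98.5 CPM among knockouts. Of 8 macrophage markers 1 was higher with edgeR, Cd68, and DESeq2 called 4 (sum 69.7 to 184 against 156 to 290 CPM). None of the 7 adipocyte, 6 Schwann cell or 5 erythroid markers was called by edgeR or DESeq2, with 1, 1 and 0 at an unadjusted p under 0.05, and adipocyte genes varied widely between libraries, with sums of 249 to 1497 CPM among controls and 712 to 2591 CPM among knockouts. Their part in the results for the members was not tested.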

How the data were processed

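RNA of the QF from 4 knockout and 4 control mice was sequenced, 1 library per mouse. The deposited raw counts of read pairs per gene were made by the authors from directional poly(A) libraries by trimming (bcl2fastq 2.20.0.422 and cutadapt), alignment to GRCm38 (STAR 2.5.4b) and exon counting (Rsubread). Duplicate, chimeric, multimapping and poorly mapped pairs (mapping score under 10) had been removed, as had genes under a sum of 50 reads. The annotation release and strand setting are not given in the sources used here. The deposited table also holds normalized values and the authors' own fold changes and p-values, which were not used.

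From the counts, all 14012 genes were fitted with edgeR 4.0.16 in R 4.3.3 (TMM, group as the only term, quasi-likelihood test, Benjamini-Hochberg adjustment over all genes, called at an adjusted p under 0.01). Log2 CPM for correlations used a prior count of 2. A count of 3, the limit that a count of 0 allows, equals 0.119 to 0.242 CPM, for counting error only. Replicates were no copies of each other (chi-square of their counts over its degrees of freedom 17.2 to 42.7), so each counted as a sample.

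Named were all members, related genes past the threshold with an absolute log2 fold change of at least 1 and groups that do not overlap, the 6 partner heavy chains, and per member the 3 genes most like it. The members and lists were chosen with earlier results of these data known. Myl7, Mybpc3 and Mylk3 were not analysed here, and Mkl1 and Mkl2 stood for Mrtfa and Mrtfb. Of the 6 planned ratios 1, and a few genes of the related lists, are not reported here. Promoter windows are RefSeq's, and transcripts are from GENCODE M21.

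Alternatives were RLE and upper-quartile factors, library totals alone, scaling without the 50 most abundant genes, filterByExpr, DESeq2 1.42.0, a robust dispersion, a threshold of 0.05, the replicate number as a block, another count added to ratios (5), totals without mitochondrial DNA genes, and each library left out. On simulated counts of 13990 genes for this comparison, with 200 changed, edgeR recovered 65% of genes changed by 1 and 83% of those changed by 2 on the log2 scale and called 3 unchanged genes. As many genes were raised as lowered, and far fewer than the data called, so the simulation does not cover the dependence on scaling.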

Additional observations from a re-analysis of the deposited data

Results flagged for a closer look

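In 36 groups of 4 libraries (levels and ratios of the members), 2 held a library far from the others, where chance alone marks about 1 in 20 groups. The log2 ratio of Myl4 to Myl1 was -3.76 in knockout replicate 4, while the other knockouts lay between -4.84 and -4.80. The log2 ratio of Mylk2 to Mylpf was -2.39 in control replicate 4, while the other controls lay between -3.29 and -3.19. Without these libraries the ratios still differed between the groups.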

How the results depend on the processing

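Over the alternatives run, Mylpf, Myl1, Mylk2, Acta1 and Mybpc2 stayed lower and Myl4 higher, each past the threshold. The number of members higher was 1 with a robust dispersion and 1 to 2 when single libraries were left out, and the change lay in Myl2, whose log2 fold change was 2.81 with a robust dispersion (adjusted p = 0.032) and 2.06 to 3.17 without single libraries. With library totals alone, related genes were 28 higher and 11 lower, all genes 8498 higher and 873 lower, Actc1 was at -0.78 and Mybpc1 at 0.83. A threshold of 0.05 gave 4436 genes higher and 3848 lower.

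The labels do not say whether the replicate numbers pair the mice. Deviations of same-numbered libraries correlated at 0.26, 0.040, 0.53 and 0.15, and those of differently numbered libraries at -0.45 to 0.20. A shared litter or batch behind the numbers was not tested. With the number as a replicate block, 3215 genes were higher and 2908 lower, and 2 members were higher and 6 lower, and Myh7 passed (3.56, adjusted p = 0.0050). The ratios under this block kept their differences of 3.38 (Myl2/Mylpf), 7.46 (Myl4/Myl1), 2.58 (Mybpc1/Mybpc2), -1.53 (Mylk2/Mylpf) and 2.27 (Myl2/Myl3), and exact sign-flip p-values were 0.125, the smallest that 4 pairs allow. Leaving out single libraries, the differences were 2.76 to 4.12 for Myl2/Mylpf, with exact permutation p of up to 0.0571 and 2.97 to 3.62 where a control was left out, and 1.91 to 2.67 for Myl2/Myl3, with p of 0.0571 and 2.23 to 2.33 where a knockout was left out.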

Other observations

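For each member, the genes with the most similar deviations from the group means were sought among 8042 genes with a mean of at least 10 CPM, over 8 libraries that share depth and scaling. With so many genes and few libraries, high values of Pearson's r can arise for any gene, and they are given as a description. Nearest to Mylpf were Mrps23, Eif3a and Usp54 (r = 0.99 each), and nearest to Myl1 were Mfsd11 (0.99), Nomo1 and Usp54 (0.98 each), so that Usp54 stood in both lists. Mybpc2 was nearest to Ckm (0.99), Klhl21 and Pygm (0.98 each), of which Ckm and Pygm are fibre genes of energy metabolism. Acta1 was nearest to Erlec1, Gpr89 and Tmod1 (0.99 each), the last a thin filament gene. For Actc1 these were Apool, Tspan3 and Zfp281, for Mybpc1 Dot1l, Sptan1 and Slc38a3, for Mylk2 Top3b, Adarb1 and Ece1, for Myl2 Cnot6l, Taf8 and Atxn1, for Myl3 Zdhhc18, Vps41 and B230354K17Rik, and for Myl4 Ckap4, Tcf4 and Nrp2, with r from 0.92 to 0.99.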
